A study of Mus musculus with 2 samples.

Results

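The genes described here were 8 ion channel genes of the pathway that links glucose uptake to insulin release, taken by name out of the 22383 features that were counted: Kcnj11, Abcc8, Cacna1a, Cacna1c, Cacna1d, Kcnj3, Trpm5 and Trpm4. All 8 were found in both libraries. They were measured by single-cell RNA-sequencing (scRNA-seq, Chromium 3′ v3.1 chemistry) in dispersed pancreatic islets of mice aged 5 weeks, with 150 islets pooled from 4 mice per group. One group was control littermates, labelled as wildtype, and the other was labelled TBL/RBKO, mice in which loxP-flanked Tbl1x and Tbl1xr1, which encode transcriptional co-factors, are deleted by Cre recombinase under the Ins1 promoter, that is, in the insulin-producing β-cells. Islets of both groups had been kept in medium with serum overnight before they were dissociated. Each group was 1 library of pooled mice, so there was no replicate, no test could be made, and all intervals below are 95% intervals for counting error only, which leaves out the spread between mice and between libraries.

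A β-cell at rest is held at a negative membrane potential by ATP-sensitive potassium (KATP) channels, each made of a pore subunit, Kir6.2, encoded by Kcnj11, and a regulatory sulfonylurea receptor, SUR1, encoded by Abcc8. When glucose is metabolised, ATP closes these channels, the membrane depolarises, and calcium enters through voltage-gated channels, whose pore subunits include the P/Q-type Cacna1a and the L-type Cacna1c and Cacna1d, and triggers exocytosis of insulin granules. Trpm5 and Trpm4 are cation channels opened by intracellular calcium, which can add to the depolarisation, and Kcnj3 (GIRK1) is a G protein-gated potassium channel that hyperpolarises cells.

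The KATP genes are neighbours. On the mouse assembly GRCm39, Kcnj11 spans chr7:45743377-45750188 and has a single exon in its canonical transcript, and Abcc8 spans chr7:45753947-45829473 with 39 exons, both on the minus strand. Trpm5 (chr7:142622890-142648379, minus strand, 25 exons) and Trpm4 (chr7:44949126-44983986, minus strand, 25 exons) lie on the same chromosome. The other genes are Cacna1a at chr8:85065224-85367997 (plus strand, 47 exons), Cacna1c at chr6:118564201-119173851 (minus strand, 49 exons), Cacna1d at chr14:29761896-30213412 (minus strand, 47 exons) and Kcnj3 at chr2:55325801-55488157 (plus strand, 3 exons). The members thus run from 6.81 kb (Kcnj11) to 610 kb (Cacna1c) of genomic span. This property comes back below because the ratio between the libraries differed between long and short genes.

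The promoters of 4 members are shown, those of the KATP pair, which moved together, and those of the members with the greatest move up (Cacna1a) and down (Trpm5) in insulin barcodes. Each runs from 250 bases before to 50 bases after the start of the gene's canonical transcript, 5′ to 3′ on the gene's strand, with E-boxes (CANNTG, the letters bound by basic helix-loop-helix factors such as NeuroD1) in capitals.
Kcnj11 promoter, chr7:45749612-45749911 (-): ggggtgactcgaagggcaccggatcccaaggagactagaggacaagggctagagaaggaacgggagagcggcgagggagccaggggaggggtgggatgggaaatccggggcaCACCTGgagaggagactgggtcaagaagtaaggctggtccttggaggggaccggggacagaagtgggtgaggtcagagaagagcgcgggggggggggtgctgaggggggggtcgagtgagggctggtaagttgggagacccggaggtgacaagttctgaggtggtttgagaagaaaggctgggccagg
Abcc8 promoter, chr7:45829419-45829718 (-): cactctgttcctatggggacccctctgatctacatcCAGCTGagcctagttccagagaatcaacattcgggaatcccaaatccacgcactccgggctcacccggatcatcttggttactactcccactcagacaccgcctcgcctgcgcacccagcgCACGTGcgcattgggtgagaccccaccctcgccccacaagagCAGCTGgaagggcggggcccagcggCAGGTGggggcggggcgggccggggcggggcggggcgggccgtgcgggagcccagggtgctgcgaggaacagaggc
Cacna1a promoter, chr8:85141743-85142042 (+): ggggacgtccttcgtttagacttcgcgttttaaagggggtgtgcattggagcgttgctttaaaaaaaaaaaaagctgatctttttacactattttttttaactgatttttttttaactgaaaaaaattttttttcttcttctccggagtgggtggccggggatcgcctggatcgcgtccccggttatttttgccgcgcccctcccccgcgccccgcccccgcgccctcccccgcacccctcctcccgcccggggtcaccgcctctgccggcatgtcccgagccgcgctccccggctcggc
Trpm5 promoter, chr7:142648330-142648629 (-): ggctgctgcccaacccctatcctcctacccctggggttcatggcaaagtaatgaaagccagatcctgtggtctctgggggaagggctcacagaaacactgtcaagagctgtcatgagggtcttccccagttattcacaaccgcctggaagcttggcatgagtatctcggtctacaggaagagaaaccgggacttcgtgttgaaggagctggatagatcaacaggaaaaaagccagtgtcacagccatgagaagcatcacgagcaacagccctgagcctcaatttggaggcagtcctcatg

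Searched on both strands, the Kcnj11 promoter held 1 E-box and 1 MAF half-site (TGCTGA), and the Abcc8 promoter held 4 E-boxes and 6 GC boxes (GGGCGG). The Cacna1a promoter held 2 GC boxes and no E-box, and the Trpm5 promoter held none of the motifs searched, which also included the NeuroD1-type E-box (CAGATG, a form of the E-box above) and the homeodomain core (TAATTA). Of 22317 promoters of the same length, 70.9% held an E-box, 41.3% a GC box, 18.4% a MAF half-site, 15.4% the NeuroD1-type E-box and 5.63% the homeodomain core. These are matches of letters in short windows, and no binding was measured in these libraries.

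The libraries held 7067 barcodes (control) and 5833 barcodes (TBL/RBKO), with 241434108 and 185062206 unique molecular identifiers (UMIs, which count captured RNA molecules), and shared 14 barcode sequences. Barcodes with more than 2500 genes and less than 10% mitochondrial UMIs were kept, 4747 and 4179, at a median of 40626 and 27425 UMIs. Each was put in a class by its most abundant islet hormone, at 100 or more UMIs per 10000: insulin (2877 control and 1338 TBL/RBKO barcodes), glucagon (Gcg, 1284 and 1546), somatostatin (Sst, 223 and 374) or pancreatic polypeptide (Ppy, 259 and 495). Barcodes with no hormone class that carried macrophage, B cell, endothelial or stromal markers, 95 and 256, served as the background. Its make-up differed, with B cell markers summing to 3.11 CPM in control and 1406 CPM in the library labelled TBL/RBKO and endothelial markers to 4230 and 951 CPM. Insulin took a median of 50.9% of UMIs in control insulin barcodes and 23.7% in those of the other library, and barcodes with a further hormone at 1% or more of UMIs made up 16.3% and 60.8% of the class. All 6 β-cell markers were detected at 10 CPM (UMIs scaled to a total of 1000000) or more in the insulin class of both libraries. Their summed levels were 541668 and 326425 CPM, mostly from Ins1 and Ins2, which defined the class. The count of 6 does not set the class apart, since all 6 also reached 10 CPM in the control Gcg, Sst and Ppy classes. In those classes of the library labelled TBL/RBKO, 4 did. Mafa was at 463 and 85.5 CPM in the insulin class and Slc2a2, the glucose transporter, at 316 and 55.3 CPM. Nkx6-1 was at 189 and 115 CPM and Iapp at 44921 and 47555 CPM.

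The deleted genes did not follow the label. In insulin barcodes, Tbl1x was at 96.9 CPM in control and 351 CPM in the other library, and Tbl1xr1 at 20.0 and 129 CPM, although 3247 UMIs of Cre, in 329 barcodes, were found in the library labelled TBL/RBKO and 0 in control. Which exons are removed is not given in the sources used here, and UMIs that lie outside the removed part cannot check the deletion. The second group is therefore called the library labelled TBL/RBKO, and every direction below rests on that label.

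For the comparison of the libraries, UMIs were summed over the barcodes of a class and the ratio of CPM values was taken as log2 of TBL/RBKO over control. Insulin, other hormones and mitochondrial genes took 58.4% of UMIs of the insulin class in control and 43.1% in the library labelled TBL/RBKO. The median gene of that class stood at 0.31 on the log2 scale, and at -0.16 with those genes out of the total. Ratios are therefore given relative to the median gene of the class, over genes at 10 CPM or more in either library. Levels are also given as CPM over the UMIs outside hormone and mitochondrial genes, called hormone-free CPM here.

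In the insulin class, 7 of the 8 members reached 10 CPM, and their ratios ran from -1.82 to 1.73 around a median of -0.34, where the median of all genes is 0 by construction. Cacna1a was 2-fold or more higher than the median gene, as were 4.36% of the 7918 genes compared. Of genes of 300 kb or more, as Cacna1a is (303 kb), the share was 12.0%. Trpm5 was 2-fold or more lower, as were 2.26% of the 7918 genes. The remaining 5 lay within 2-fold, both KATP genes below the median gene and both L-type channel genes at or slightly above it. Kcnj3 did not reach 10 CPM in either library.

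**Figure D1:**
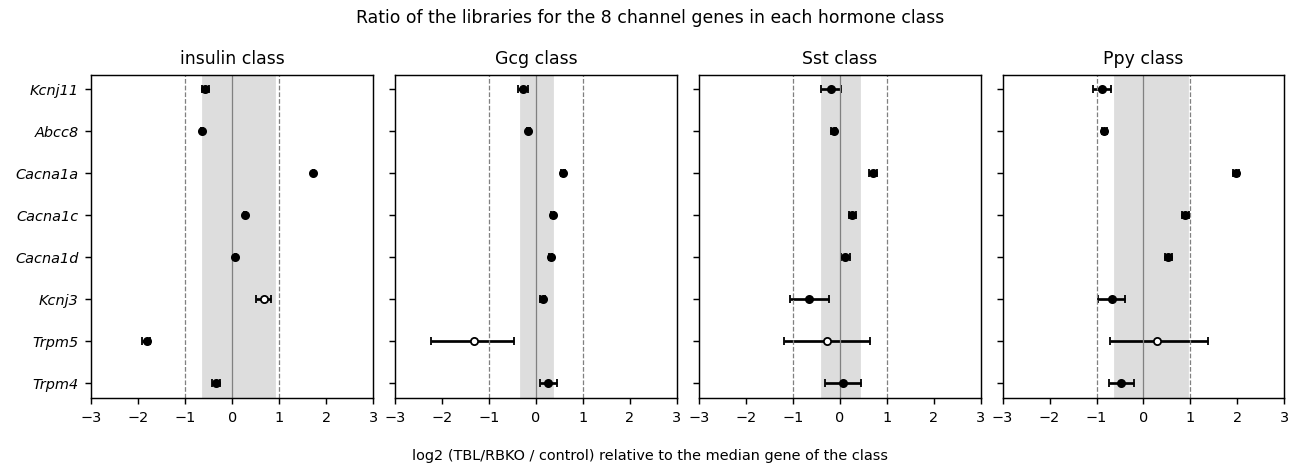
Log2 ratio of the library labelled TBL/RBKO over control, relative to the median gene of each class (x axis), for the 8 channel genes (y axis). Points are 1 library per group with 95% counting intervals, open points did not reach 10 CPM, grey bands hold 90% of all genes compared (5th to 95th percentile) and dashed lines mark 2-fold. Cacna1a lies beyond 2-fold at 1.73 in the insulin class and 1.96 in the Ppy class, and Trpm5 at -1.82 in the insulin class.

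The KATP channel genes were lower in insulin barcodes of the library labelled TBL/RBKO. Kcnj11 was at 22.8 CPM (22.1 to 23.5, 4148 UMIs) in control and 19.0 CPM (18.2 to 19.9, 1923 UMIs) in the library labelled TBL/RBKO, which is -0.57 (-0.65 to -0.49) relative to the median gene. Abcc8 was at 353 CPM (350 to 355) and 279 CPM (275 to 282), a relative ratio of -0.65 (-0.67 to -0.63). Both subunits were thus lower by a similar amount, 1.49-fold and 1.57-fold, and 6.14% and 4.71% of genes had a lower ratio. In hormone-free CPM, whose median gene stood at -0.16 on the log2 scale, the levels were 54.7 and 33.4 for Kcnj11 and 847 and 489 for Abcc8.

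The proportion of the 2 subunit transcripts was similar in the libraries. Kcnj11 gave 6.46 UMIs (6.26 to 6.67) per 100 Abcc8 UMIs in control insulin barcodes and 6.84 (6.53 to 7.16) in the library labelled TBL/RBKO. The same number was 9.27 and 8.58 in the Gcg class, 6.97 and 6.72 in the Sst class, and 8.73 and 8.40 in the Ppy class. The intervals of the libraries overlapped in all 4 classes, while those of the insulin class did not overlap those of the Gcg class in either library.

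In the other classes the KATP pair was also below the median gene. Kcnj11 and Abcc8 stood at -0.27 and -0.16 in the Gcg class and at -0.19 and -0.13 in the Sst class, where the interval of Kcnj11 (-0.40 to 0.03) included the median gene. The Ppy class showed the lowest values, -0.89 (-1.08 to -0.70) for Kcnj11, from 37.6 to 24.2 CPM, and -0.84 (-0.89 to -0.78) for Abcc8, from 430 to 288 CPM. Both genes were highest in the Sst class by CPM in either library, with 52.0 and 46.2 CPM for Kcnj11 and 746 and 688 CPM for Abcc8, and lowest in the insulin class, which for Abcc8 in the library labelled TBL/RBKO did not differ from the Ppy class beyond counting error. For Kcnj11 the Sst and Gcg classes did not differ beyond counting error, and for Abcc8 the place of the insulin class depended on the scale. In hormone-free CPM it was second in control (847, behind 1005 in the Sst class) and, in the library labelled TBL/RBKO, above the Ppy class (489 and 442). The non-endocrine background was far below, at 0.692 and 0.449 CPM for Kcnj11 and 18.7 and 7.48 CPM for Abcc8.

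**Figure D2:**
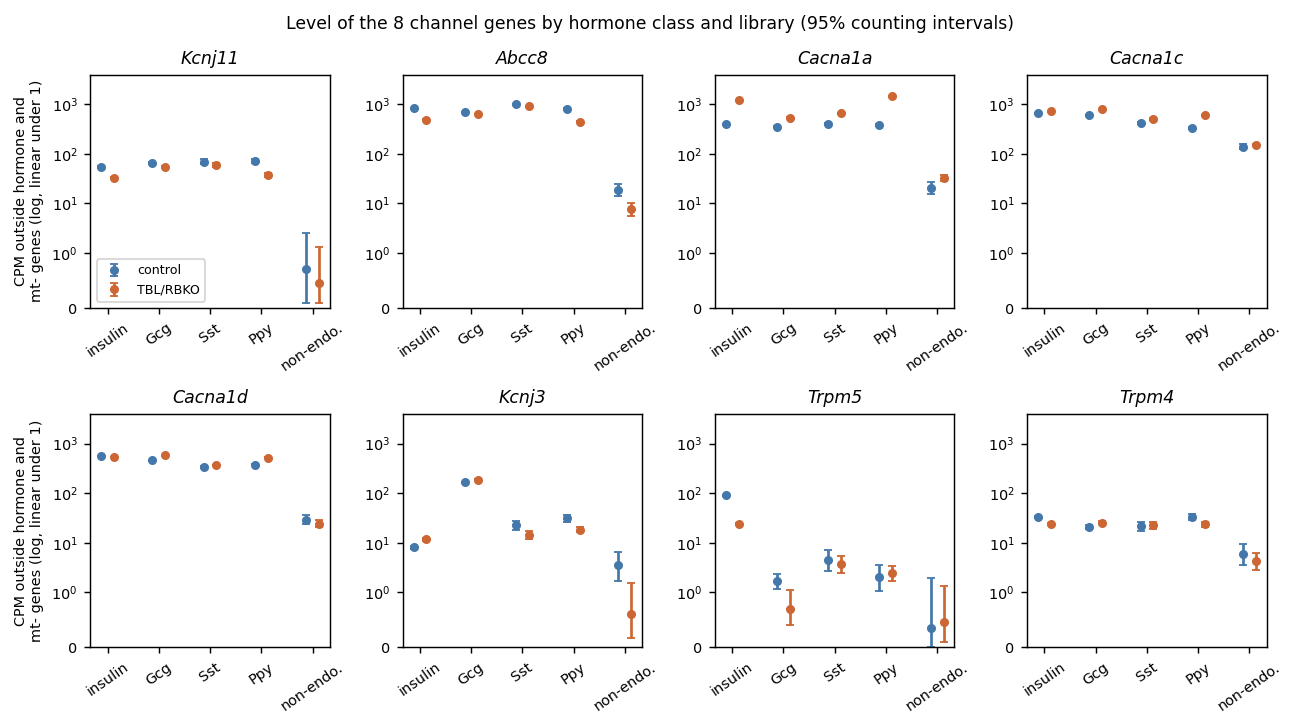
Hormone-free CPM (y axis, log scale, linear under 1) of the 8 channel genes in the insulin, Gcg, Sst and Ppy classes and the non-endocrine background (x axis), in control (blue) and the library labelled TBL/RBKO (orange), with 95% counting intervals and 1 library per group. Trpm5 stands out in the insulin class (91.5 and 23.5) and Kcnj3 in the Gcg class (167 and 187), and Cacna1a is higher in the library labelled TBL/RBKO in every hormone class.

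Cacna1a, the P/Q-type calcium channel gene, was the member furthest above the median gene. In the insulin class it was at 167 CPM (165 to 169, 30380 UMIs) in control and 685 CPM (680 to 691, 69212 UMIs) in the library labelled TBL/RBKO. The ratio relative to the median gene was 1.73 (1.71 to 1.74), or 3.31-fold, a value that 98.4% of genes did not reach. In barcodes, the median was 3.58 Cacna1a UMIs per 10000 outside hormone and mitochondrial genes in control and 8.13 in the library labelled TBL/RBKO. The upper end was further apart than the lower, with the 90th percentile at 7.69 and 25.9 and the 10th at 1.15 and 2.10, and 3.42% and 41.7% of barcodes lay at 10 or more.

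The higher Cacna1a level was not restricted to insulin barcodes. In the Ppy class it went from 201 CPM (193 to 210) in control to 940 CPM (927 to 954), a relative ratio of 1.96 (1.90 to 2.03), which placed it, alone among the 7 members at 10 CPM, among the 4.63% of genes 2-fold or more higher in that class. Of genes of 300 kb or more, 13.4% were 2-fold or more higher in the Ppy class. No member was among the 1.18% of all genes that were 2-fold or more lower there. In the Gcg class Cacna1a was at 259 and 416 CPM (0.58) and in the Sst class at 302 and 501 CPM (0.71). None of the 7 members at 10 CPM lay beyond 2-fold in either class, where 0.712% and 0.898% of genes were 2-fold or more higher and 0.156% and 0.541% were 2-fold or more lower.

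In the Sst class the Cacna1a difference rested on a minority of barcodes. The median over barcodes was 3.39 and 3.35 per 10000, the 90th percentile 7.45 and 9.91, and the share at 10 or more 3.15% and 9.89%. With barcodes of fewer than 6000 genes (177 and 271) the ratio in that class was 0.00. With barcodes of 1 hormone only, which were few (37 and 124), it was -0.03. In the Gcg class the median over barcodes was 2.87 and 3.74, and the same limits left 0.32 (1069 and 1307 barcodes) and 0.38 (519 and 1232). The limit of 1 hormone acted unequally there, since 59.6% of control Gcg barcodes and 20.3% of those of the other library had a further hormone. Insulin barcodes with fewer than 6000 genes (1454 and 312) and those with 1 hormone only (2409 and 525) kept values beyond 2-fold, 1.58 and 1.36.

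In Ppy barcodes of the library labelled TBL/RBKO the Cacna1a values were widely spread, with quartiles at 2.86 and 15.2 per 10000 around a median of 6.09, against 1.69, 4.90 and 3.07 in control. Ppy barcodes with insulin below 500 UMIs per 10000 (249 and 459) still had 392 and 1419 hormone-free CPM of Cacna1a, and Abcc8 at 830 and 452. Tbl1x in the same barcodes was at 200 and 542 hormone-free CPM. Cre UMIs were found in 3.03% of Ppy, 20.5% of insulin, 0.712% of Gcg and 1.56% of background barcodes of the library labelled TBL/RBKO. These shares were not thinned, and the median depth was 33768, 67897, 18800 and 20525 UMIs in turn. Whether these Ppy barcodes stem from cells in which Cre was active was not tested.

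**Figure D3:**
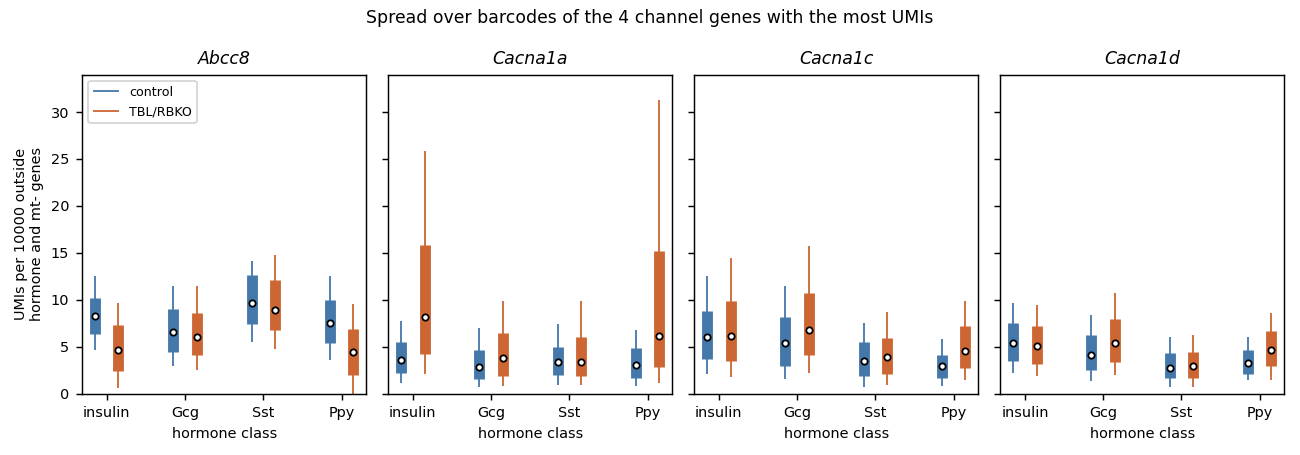
UMIs per 10000 outside hormone and mitochondrial genes (y axis) over the barcodes of each hormone class (x axis), for Abcc8, Cacna1a, Cacna1c and Cacna1d in control (blue) and the library labelled TBL/RBKO (orange). Thin lines run from the 10th to the 90th percentile, thick bars over the quartiles and circles mark medians; barcodes of 1 library are not replicates. For Cacna1a the 90th percentile is 7.69 and 25.9 in the insulin class and 6.80 and 31.3 in the Ppy class.

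The L-type calcium channel genes differed little in insulin barcodes. Cacna1c was at 274 CPM (272 to 276) in control and 411 CPM (407 to 415) in the library labelled TBL/RBKO, a ratio of 0.27 (0.25 to 0.29) relative to the median gene. Cacna1d was at 232 CPM (230 to 235) and 303 CPM (300 to 307), a ratio of 0.07 (0.05 to 0.09). In hormone-free CPM the values were 658 and 722 for Cacna1c and 558 and 532 for Cacna1d.

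Both L-type genes were above the median gene in each of the other classes. In the Gcg class Cacna1c was at 446 and 616 CPM (0.36) and Cacna1d at 340 and 452 CPM (0.31), and in the Sst class the ratios were 0.27 and 0.12. The Ppy class gave 0.89 (0.82 to 0.96) for Cacna1c, from 177 to 393 CPM, and 0.53 (0.46 to 0.60) for Cacna1d, from 198 to 342 CPM. By CPM the Gcg class had the most of both transcripts in either library, while in control hormone-free CPM the insulin class came first, with 658 against 605 for Cacna1c and 558 against 462 for Cacna1d.

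These are long genes, and long genes as a group stood somewhat above short ones in the ratio, least so in the Sst class. Over genes of 300 kb or more the median relative ratio was 0.18 in the insulin class (334 genes), 0.15 in the Gcg class, 0.05 in the Sst class and 0.18 in the Ppy class, while for genes under 20 kb it was 0.00, -0.11, -0.04 and -0.12. Of the genes of 300 kb or more, 12.0% were 2-fold or more higher and 7.49% lower in the insulin class. In the Ppy class these shares were 13.4% and 4.66%. Against genes of like span, a choice added once the values were known, Cacna1c stood at 0.09 and Cacna1d at -0.11 in the insulin class, and Cacna1a kept 1.54. The median share of mitochondrial UMIs in insulin barcodes was 2.55% in control and 3.84% in the library labelled TBL/RBKO. The part of gene span and of the mitochondrial share in these values was not tested.

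**Figure D4:**
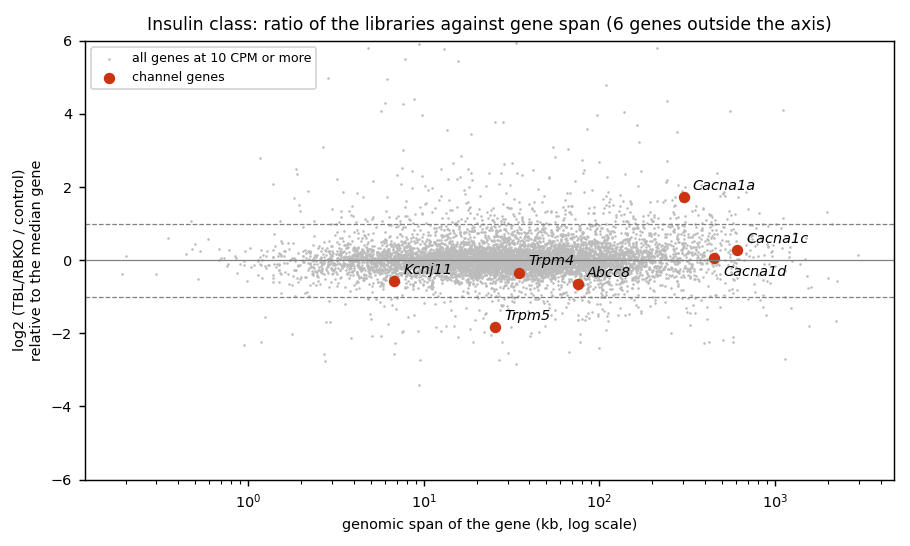
Log2 ratio of the library labelled TBL/RBKO over control in the insulin class, relative to the median gene (y axis), against the genomic span of each gene in kb (x axis, log scale), for genes at 10 CPM or more (grey) and the channel genes among them (red). Cacna1a (1.73) lies above and Trpm5 (-1.82) below the 2-fold lines, which are dashed, and the other 5 channel genes lie between them.

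Kcnj3, the GIRK1 subunit gene, was a transcript of glucagon barcodes in both libraries. In the Gcg class it was at 123 CPM (119 to 127, 3543 UMIs) in control and 145 CPM (141 to 150, 4881 UMIs) in the library labelled TBL/RBKO, 0.14 (0.08 to 0.20) relative to the median gene. The insulin class held 3.35 CPM (611 UMIs) and 6.64 CPM (670 UMIs), and the Sst and Ppy classes at most 17.0 CPM. Thinned to 5000 UMIs outside hormone and mitochondrial genes, 39.4% and 43.0% of Gcg barcodes and 3.17% and 3.96% of insulin barcodes had a Kcnj3 UMI, against 1.05% and 0.392% of the non-endocrine background. The intervals of the insulin class (2.56 to 3.88) and the background (0.0266 to 5.73) overlapped in control.

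Within the insulin class, Kcnj3 followed glucagon. Barcodes with Gcg at 100 or more UMIs per 10000 made up 8.76% of the class in control and 18.2% in the library labelled TBL/RBKO, and held 63.0% and 71.5% of its Kcnj3 UMIs. Their level was 39.5 (35.6 to 43.6) and 38.3 (34.9 to 41.9) hormone-free CPM, which did not differ beyond counting error. Insulin barcodes with no other hormone held 3.25 (2.80 to 3.75) and 2.22 (1.59 to 3.01) hormone-free CPM. The class-wide ratio of 0.67 reversed to -0.42 in barcodes of 1 hormone, to -0.16 in barcodes with fewer than 6000 genes, and to -0.75 when each barcode had equal weight. Whether barcodes with insulin and glucagon are single cells or 2 cells in 1 droplet was not tested; removal of the barcodes with the highest doublet scores left 0.70.

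Kcnj3 was lower in the other classes, at -0.65 (-1.06 to -0.23, 91 and 114 UMIs) in the Sst class and -0.68 (-0.96 to -0.40, 179 and 253 UMIs) in the Ppy class. The part of free RNA from glucagon cells in these low levels was not tested.

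Trpm5 UMIs lay mostly in insulin barcodes. In control it was at 38.1 CPM (6938 UMIs) in the insulin class and between 1.08 and 3.36 CPM in the other hormone classes, on 12 to 36 UMIs each. In the library labelled TBL/RBKO the insulin class held 13.4 CPM (1351 UMIs), and the other classes between 0.537 and 2.79 CPM. The ratio in the insulin class relative to the median gene was -1.82 (-1.91 to -1.74), or 3.54-fold lower, and 0.518% of genes had a lower value. The other classes did not reach 10 CPM, and intervals of the ratio there were wide, as in the Gcg class at -1.32 (-2.23 to -0.47).

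Fewer insulin barcodes of the library labelled TBL/RBKO held a Trpm5 UMI. Thinned to 5000 UMIs outside hormone and mitochondrial genes, 34.1% (32.4 to 35.9) of 2869 control barcodes and 11.1% (9.50 to 12.9) of 1338 barcodes had one, after 8 and 0 shallower barcodes were left out. Without thinning the shares were 73.4% and 37.8%, although the barcodes of the library labelled TBL/RBKO were deeper, with a median of 67897 against 53346 UMIs. In the background, with medians of 26900 and 20525 UMIs, 1 of 95 and 1 of 255 barcodes had a UMI after thinning.

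Thinned in the same way, outside hormone and mitochondrial genes, the shares of Kcnj11, Abcc8 and Trpm4 were lower in the library labelled TBL/RBKO. That of Cacna1a was higher. Kcnj11 was found in 23.6% and 15.4% of insulin barcodes, Abcc8 in 95.8% and 78.3%, and Cacna1a in 77.8% and 90.7%. Trpm4 was found in 15.9% (14.6 to 17.3) and 11.1% (9.50 to 12.9). Cacna1c (89.4% and 87.2%) and Cacna1d (88.3% and 87.0%) differed less, and on this scale their shares were slightly lower although their CPM was higher. In the background, Cacna1c was found in 30.5% and 28.6% of barcodes, Cacna1d in 11.6% and 12.2%, Cacna1a in 11.6% and 11.4%, Abcc8 in 8.42% and 4.31% and Trpm4 in 7.37% and 1.96%, so that each had a higher share in insulin barcodes of both libraries. Kcnj11 was in 0 of 95 and 0 of 255 background barcodes, which allows up to 3.81% and 1.44%.

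Trpm4, the close relative of Trpm5, had a similar level in both libraries by CPM. In the insulin class it was at 14.0 CPM (13.4 to 14.5) and 13.7 CPM (13.0 to 14.4), which placed it at -0.34 (-0.44 to -0.25) relative to the median gene. In the Gcg class it was at 15.4 and 19.8 CPM, at 0.26 (0.09 to 0.44), in the Sst class at 16.0 and 17.0 CPM, at 0.06, and in the Ppy class at 17.7 and 15.3 CPM, at -0.47 (-0.73 to -0.21). Levels over the 4 classes of both libraries ran from 13.7 to 19.8 CPM, and neighbours in the order of classes did not differ beyond counting error, although in the library labelled TBL/RBKO the Gcg (18.3 to 21.4) and insulin classes did. In hormone-free CPM the insulin class was at 33.5 in control, apart from the Sst class (21.6) and the Gcg class (20.9), and at 24.0 in the library labelled TBL/RBKO. The background held 5.88 and 4.19 CPM.

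Insulin barcodes differed widely in their insulin content, and several members followed it. The class was divided at 20% and 40% of UMIs from Ins1 and Ins2, which gave 204, 387 and 2286 control barcodes and 577, 438 and 323 barcodes of the library labelled TBL/RBKO from the lowest to the highest range. The 204 control barcodes of the lowest range were shallow, with a median of 10083 UMIs against 62217 in the library labelled TBL/RBKO, and held Kcnj3 at 74.9 hormone-free CPM. The lowest range of control is therefore a less sure reference than the other 2. Insulin also took a median of 0.971% of UMIs in control Gcg barcodes, near the limit of the class, against 0.186% in the library labelled TBL/RBKO. How many control barcodes of the lowest range passed the limit on such insulin was not tested. The ranges are wide, so the insulin share can still differ between the libraries within each of them.

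Trpm5 was higher with more insulin in both libraries. Control barcodes held 12.8 (9.38 to 17.0), 46.5 (42.9 to 50.3) and 107 (104 to 109) hormone-free CPM from the lowest to the highest range. Those of the library labelled TBL/RBKO held 5.86 (4.99 to 6.85), 20.6 (18.6 to 22.7) and 72.8 (67.8 to 78.0). From the lowest to the highest range this is 3.06 (2.65 to 3.51) and 3.63 (3.39 to 3.89) on the log2 scale, while the libraries differed by less within a range. Within the ranges the ratio relative to the median gene was -0.98 (-1.46 to -0.48), -0.99 (-1.18 to -0.81) and -0.40 (-0.51 to -0.30). The intervals of the lower 2 ranges included 2-fold, and that of the highest range lay within 2-fold.

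Cacna1a was lower with more insulin in the library labelled TBL/RBKO, at 1623 (1608 to 1638), 989 (975 to 1003) and 543 (529 to 557) hormone-free CPM. In control it was nearly flat, at 422, 432 and 392. The step from the lowest to the highest range was -1.58 (-1.62 to -1.54) and -0.11 (-0.18 to -0.03). Within the ranges the ratio of the libraries relative to the median gene was 2.08 (2.01 to 2.16), 1.38 (1.34 to 1.42) and 0.62 (0.57 to 0.66). It was above the median gene in all 3 ranges and beyond 2-fold in the lower 2.

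Abcc8 went the other way in the library labelled TBL/RBKO. Its levels were 394, 540 and 635 hormone-free CPM from the lowest to the highest range, against 790, 907 and 836 in control, and relative ratios within the ranges were -0.87, -0.56 and -0.25. Kcnj11 had 27.1, 36.4 and 43.8 against 39.6, 58.7 and 54.7, and relative ratios of -0.41, -0.51 and -0.17. Both KATP genes were nearest to control where insulin was highest, and remained below the median gene there. Over all UMIs the step of these genes from the lowest to the highest range turned negative, at -0.08 for each in the library labelled TBL/RBKO and at -0.90 (Abcc8) and -0.52 (Kcnj11) in control.

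Cacna1c and Cacna1d changed little along the insulin share. Cacna1c ran from 770 to 660 hormone-free CPM in the library labelled TBL/RBKO and from 720 to 651 in control, and Cacna1d from 562 to 501 and from 537 to 560. Trpm4 was higher with more insulin in control, at 22.8, 28.8 and 35.3, and level in the library labelled TBL/RBKO, at 22.6, 26.7 and 22.9. Over all UMIs the step of Trpm4 in control was -0.35. Its ratio within the ranges was 0.12, 0.08 and -0.47.

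Kcnj3 was lower with more insulin, at 74.9, 13.9 and 2.53 hormone-free CPM in control and 16.1, 9.27 and 4.88 in the library labelled TBL/RBKO. The relative ratios within the ranges were -2.08 (-2.30 to -1.86), -0.41 (-0.71 to -0.10) and 1.09 (0.61 to 1.56), on 149 and 53 UMIs in the highest range. Its direction thus depended on the range, and 276 of the 611 control UMIs of the class lay in the 204 shallow barcodes of the lowest range.

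**Figure D5:**
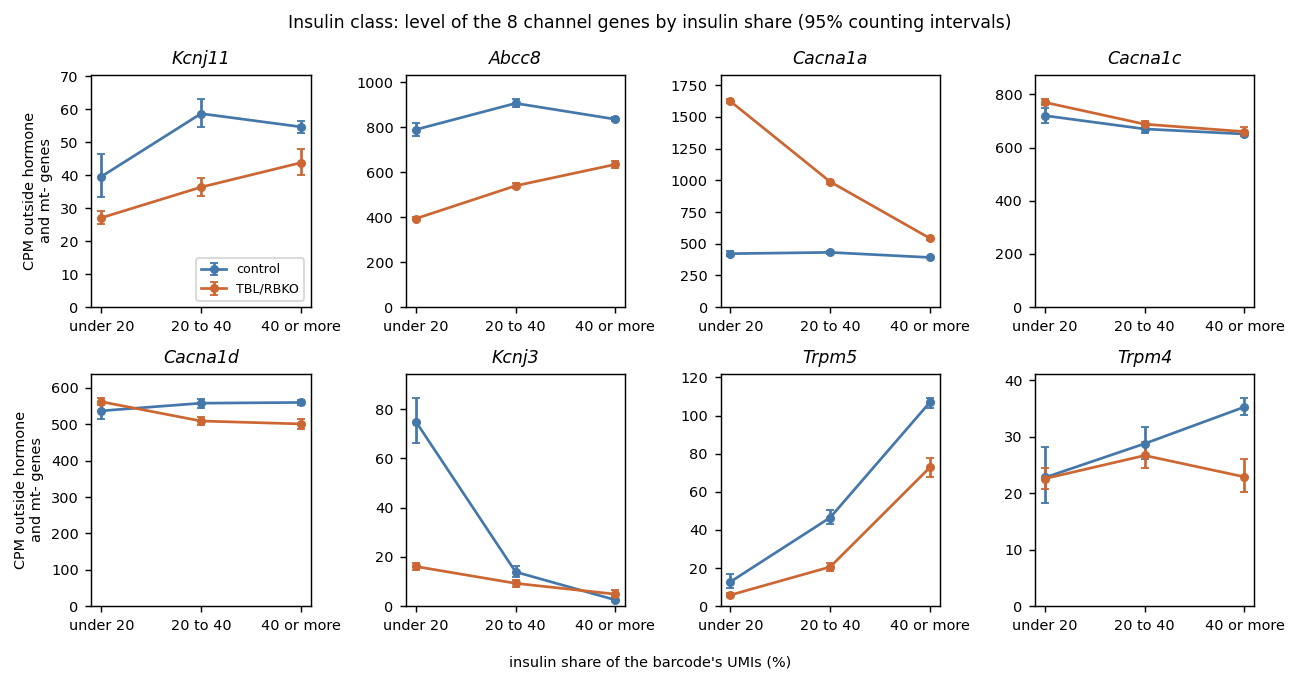
Hormone-free CPM (y axis, from 0) of the 8 channel genes in insulin barcodes with under 20%, 20 to 40% and 40% or more of UMIs from insulin (x axis), in control (blue) and the library labelled TBL/RBKO (orange), with 95% counting intervals and 1 library per group. Trpm5 is higher with more insulin in both libraries, and Cacna1a goes from 1623 to 543 in the library labelled TBL/RBKO and from 422 to 392 in control.

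Levels also differed between insulin barcodes with and without a further hormone. Insulin barcodes of 1 hormone (2409 and 525) held Cacna1a at 411 and 962 and Trpm5 at 103 and 47.5 hormone-free CPM. Those with Ppy at 100 or more UMIs per 10000 (167 and 691) held Cacna1a at 348 and 1384, Trpm5 at 47.8 and 10.6 and Abcc8 at 883 and 429. With Gcg at that level (252 and 243) Cacna1a was at 348 and 1033, Trpm5 at 60.5 and 11.2 and Abcc8 at 876 and 518, and with Sst (230 and 224) they were at 380 and 1061, 39.3 and 10.6, and 939 and 620. In the library labelled TBL/RBKO, then, Trpm5 was lower with each of the 3 further hormones, while Cacna1a was highest and Abcc8 lowest with Ppy. Relative to the median gene, Trpm5 in barcodes of 1 hormone was at -0.99, just within 2-fold. Thus Trpm5 lay beyond 2-fold over the whole class but not in barcodes of 1 hormone, and Cacna1a lay beyond 2-fold in both.

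The wider set of ion channel and calcium-handling genes, 82 in number and all present in the files, was compared in insulin barcodes of both libraries. Of the 68 genes with 100 or more UMIs, 12 (17.6%) were 2-fold or more higher and 4 (5.88%) 2-fold or more lower relative to the median gene, with a median ratio of 0.16. Over all 13121 genes at that count the shares were 6.56% and 3.81% and the median -0.01. These shares were not matched for gene span. Low ratios were found for the cation channels Trpm3 (296 and 153 CPM, -1.27) and Trpc4 (-1.12), the pacemaker channel Hcn4 (-1.09) and the calcium pump Atp2b4 (-0.91). The highest were Ano1, a calcium-activated chloride channel (0.258 and 3.40 CPM, 3.40), the T-type calcium channels Cacna1h (0.802 and 3.95 CPM, 1.99) and Cacna1g (0.324 and 1.55 CPM, 1.95), the R-type Cacna1e (1.68) and the cation channel Trpc5 (1.48). Trpm3, with 53860 and 15411 UMIs, was the best counted of those named here, and the 5 highest had at most 514 UMIs in a library.

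The genes whose levels over the 8 sums of library and class were most like a member's were listed over 9809 genes, by Pearson correlation of log2(CPM + 1), as a description in which all genes share the same 8 sums and their depths. For Cacna1a these were Abca1 (r = 0.990), a cholesterol exporter, Gse1 (0.982) and Por (0.982), the cytochrome P450 reductase. Por went from 55.1 to 245 CPM in the insulin class and from 67.6 to 275 CPM in the Ppy class. For Trpm5 they were Cntfr (0.979), a ciliary neurotrophic factor receptor, Rims3 (0.977), of the exocytosis machinery, and Fras1 (0.973). Fras1 was at 43.2 and 17.7 CPM in the insulin class and between 6.67 and 9.14 CPM elsewhere.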

How the data were processed

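UMI counts of each gene in each barcode were deposited. According to the submitters' processing notes, they come from Cell Ranger 7.1.0 and GRCm39. The study's methods name default settings apart from the expected number of cells and the chemistry, and that version counts intronic reads by default. The lowest total of a barcode was 500 UMIs. The deposited counts were not normalized. For its own results the study normalized the counts and removed free (ambient) RNA. No free RNA was removed for the main values here. Barcodes were kept by the study's limits on detected genes and mitochondrial UMIs, without its upper limit of 6000 genes, and were classed by the most abundant hormone. Fewer than 6000 genes were found in 1454 of 2877 control insulin barcodes, and in only 312 of 1338 of the library labelled TBL/RBKO. Most insulin barcodes of the latter would thus fall outside the study's upper limit. Per library, the UMIs of all barcodes in a class were added up and scaled to CPM. Intervals were exact Poisson (levels), exact binomial (shares) and exact conditional binomial (ratios). With 1 library per group no p-value was computed. Ratios were centred on the median gene at 10 CPM or more; hormone-free CPM left out Ins1, Ins2, Gcg, Sst, Ppy, Pyy, Iapp and mitochondrial genes. Shares were computed after each barcode was thinned to 5000 UMIs, outside hormone and mitochondrial genes unless stated otherwise.

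The members, lists and rules were chosen with earlier results of these data known. The genes named were the 8 members, the 5 highest and 5 lowest of the wider channel set, the 3 genes most like each member (given here for 2 members, the rest in the closing section), and Tbl1x, Tbl1xr1 and insulin as checks; Mafa, Slc2a2 and Cre were added to describe the classes. Some genes that these rules pick are not reported here. Doublets were not removed. The doublet caller Scrublet set its own limit so high that it picked out 81 barcodes (1.25%) in control and 1 (0.0187%) in the other library, and so had not worked. An alternative removed the highest scores, 336 (5.18%) and 231 (4.32%) barcodes, at 0.8% for every 1000 barcodes. Positions, exons and promoter sequences were taken from GRCm39 and GENCODE M39. The software was scanpy 1.11.5 (Scrublet), scipy 1.17.1 (intervals), numpy 2.4.6 and pandas 2.3.3 under Python 3.11.15. Scripts were tested on simulated data.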

Additional observations from a re-analysis of the deposited data

Results flagged for a closer look

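The ratio of the library labelled TBL/RBKO over control for Trpm4 stood on opposite sides of the median gene in the insulin and Gcg classes. It was at -0.34 and 0.26 on the log2 scale relative to the median gene of each class. With 1 library per group, the difference between the classes was not tested.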

How the results depend on the processing

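All values are log2 ratios relative to the median gene, in the insulin class unless another is named, and in each case the cause of a move was not tested. Without hormone and mitochondrial genes in the total, Abcc8 was at -0.63, Cacna1a at 1.75, Cacna1c at 0.30 and Cacna1d at 0.09. With fewer than 6000 genes (1454 control and 312 TBL/RBKO insulin barcodes), Kcnj11 was at -0.46, Abcc8 at -0.56, Cacna1a at 1.58 and Cacna1c at 0.24. Trpm5 was then at -1.01 and Kcnj3 at -0.16, which reversed, as did Cacna1d in the Sst class (-0.01). With barcodes of 1 hormone only, Kcnj11 was at -0.43, Abcc8 at -0.49, Cacna1a at 1.36, Cacna1c at 0.42 and Cacna1d at 0.14. Trpm5 was then at -0.99, Trpm4 at -0.50 and Kcnj3 at -0.42, which reversed. Cacna1a in the Sst class also reversed (-0.03, on 37 and 124 barcodes). Without the highest doublet scores Cacna1a was at 1.76. As a mean over barcodes, Kcnj11 was at -0.49, Cacna1a at 1.76, Cacna1c at 0.23, Trpm5 at -1.72 and Kcnj3, reversed, at -0.75. With the median over genes at 50 CPM or more, Kcnj11 was at -0.66, Abcc8 at -0.75, Cacna1a at 1.63, Cacna1c at 0.18, Trpm5 at -1.92 and Cacna1d, reversed, at -0.02. With the non-endocrine level subtracted, Abcc8 was at -0.61, Cacna1a at 1.84, Cacna1c at 0.63, Cacna1d at 0.14 and Trpm4 at -0.08. That level comes from barcodes of other cell types, which held Cacna1c at 138 and 149 CPM. How much of it was their own expression was not tested. Against genes of like span, chosen after seeing the data, Cacna1a was at 1.54, Cacna1c at 0.09 and Cacna1d, reversed, at -0.11. Over all UMIs in place of hormone-free CPM, the step from the lowest to the highest insulin range reversed for Kcnj11 (-0.52 in control and -0.08 in the library labelled TBL/RBKO), Abcc8 (-0.90 and -0.08) and Trpm4 in control (-0.35), since insulin itself then lowers the CPM of other genes. Cacna1a stayed beyond 2-fold over the whole insulin class under each alternative named here, and Trpm5 under all but 1 hormone only. Within the highest insulin range alone they were at 0.62 and -0.40. The pooling of 4 mice into 1 library per group limits every comparison, and UMI counts below 100, as for Trpm5 outside the insulin class, leave wide intervals.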

Other observations

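A set of 170 barcodes of the library labelled TBL/RBKO, and 9 of control, had no hormone at 100 UMIs per 10000. They had too few UMIs of the non-endocrine markers to join the background. These numbers are not a like comparison, since insulin outside the insulin class lay nearer that limit of 1% in control. Its median was 0.971% in Gcg, 0.945% in Sst and 0.652% in background barcodes of control. In the library labelled TBL/RBKO it was 0.186%, 0.162% and 0.139%. The 170 barcodes were shallow, with a median of 14067 UMIs and 3893 genes and 5.17% mitochondrial UMIs. They held Cacna1c at 637 CPM (610 to 665), Cacna1a at 464 CPM (441 to 487), Cacna1d at 410 CPM (388 to 432) and Kcnj3 at 143 CPM (130 to 156), values of the order of those in the Gcg class of that library (616, 416, 452 and 145 CPM). Abcc8 was lower, at 273 CPM (255 to 291) against 495 CPM, and so was Kcnj11, with 13 UMIs (3.94 CPM, 2.10 to 6.74) against 42.4 CPM in the Gcg class, and gave 1.44 UMIs (0.765 to 2.48) per 100 Abcc8 UMIs against 8.58. Of the 4 ductal markers, 3 were at 10 CPM or more (Spp1 2789, Krt18 1798 and Krt19 300 CPM) and Cftr was at 2.42 CPM, with a sum of 4889 CPM against 382 CPM in the Gcg class. What these barcodes are was not tested.

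Within insulin barcodes of the library labelled TBL/RBKO, those with a Cre UMI (274) and those without (1064) were set side by side. Cacna1a was at 1066 (1048 to 1084) and 1243 (1233 to 1253) hormone-free CPM, Trpm5 at 31.7 (28.7 to 34.9) and 21.1 (19.8 to 22.5) and Abcc8 at 524 (511 to 536) and 479 (473 to 486), and Tbl1x at 619 and 615. Both kinds of barcodes thus lay on the same side of control, which had 401, 91.5 and 847 for the channel genes. Barcodes with a Cre UMI were deeper, with a median of 81403 against 64693 UMIs.

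The genes most like the other members over the 8 sums of library and class were Med21, Trp53bp2 and Sft2d3 for Kcnj11, Mppe1, Uqcc5 and Fis1 for Abcc8, Fbxl18 and Lrguk for Cacna1c, Slc44a1, Adcy9 and Fam222b for Cacna1d, Dnajc25, Pim2 and Pde8b for Kcnj3, and Decr2, Tfeb and Tcaim for Trpm4. The correlations were 0.974 or more except for Trpm4, whose values were 0.880, 0.872 and 0.862. Pim2 had 63.6 and 83.1 CPM in the Gcg class and 14.9 and 18.9 CPM in the insulin class.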
